A study of Mus musculus with 8 samples.

Results

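The cardiac T-box genes described here are Tbx1, Tbx2, Tbx3, Tbx4, Tbx5 and Tbx20, 6 of the 27179 genes in a table of read counts from embryonic mouse hearts. They were chosen by name and matched by Entrez gene number, and all 6 were found. RNA was sequenced from 8 whole hearts at embryonic day 10.5: 5 were wild type (Kat6a+/+, here Kat6a WT) and 3 had no intact Kat6a allele (Kat6a-/-, here Kat6a KO). The Kat6a protein, Moz, adds acetyl groups to histones. The labels are silent on strain, litter, embryo sex and which part of Kat6a the mutant allele lacks. Replicates are separate samples by their labels, so p-values reflect the spread over these samples, which may share litters.

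T-box proteins bind DNA through a shared domain, the T-box, and act as activators or repressors. In the forming heart Tbx5 and Tbx20 promote the chamber muscle programme together with Nkx2-5 and Gata4, while Tbx2 and Tbx3 repress chamber genes and so keep the atrioventricular canal and, for Tbx3, the pacemaker region apart from working muscle. Tbx1 acts mainly in pharyngeal tissue and in the progenitors of the outflow tract, and Tbx4 is known mainly from the hindlimb, lung and body wall. The loss of one copy of TBX1 or TBX5 is linked to human heart malformations, and the question for Kat6a is whether RNA of these dosage-sensitive genes differs when the acetyltransferase is lost.

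Wild-type libraries held 20817852 to 34539787 counts and mutant libraries 19911803 to 30033097. Kat6a RNA stood at 138 to 156 CPM (counts per 1000000 of the scaled library) in wild-type hearts and at 133 to 141 CPM in mutants. Since transcript from a mutant allele may still be counted, this does not test the genotype labels, and the groups are taken as labelled. Xist RNA, which marks female cells, was present in Kat6a WT replicates 4 and 5 and in no Kat6a KO heart. All 12 cardiomyocyte markers searched passed the count filter, with summed levels of 36583 to 39638 CPM in wild-type hearts and 39702 to 42760 CPM in mutants. In whole hearts, fewer cells of a type and less RNA per cell cannot be told apart.

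No T-box member passed the test for a difference between Kat6a KO and Kat6a WT. The Tbx5 mean was lower in Kat6a KO (1.15-fold), and the Tbx2 and Tbx3 means were higher (1.12-fold and 1.18-fold), but the values of the groups overlapped for all 6 genes. Of the 5 members that passed the count filter, 0 had an adjusted p under 0.05 (edgeR quasi-likelihood test, Benjamini-Hochberg over 15086 genes), where 2.67% of all genes did. DESeq2 also called 0 of 5, where it called 3.84% of all genes, and limma voom called 0 of 5, where it called 370 genes in all. At an unadjusted p under 0.05, edgeR had 3 of 5 (Tbx2, Tbx3 and Tbx5), where 14.2% of all genes had one. DESeq2 had 2 and limma voom had 1 at that cut, and their shares over all genes were not computed. The plot of each member by heart shows the values behind these counts.

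**Figure D1:**
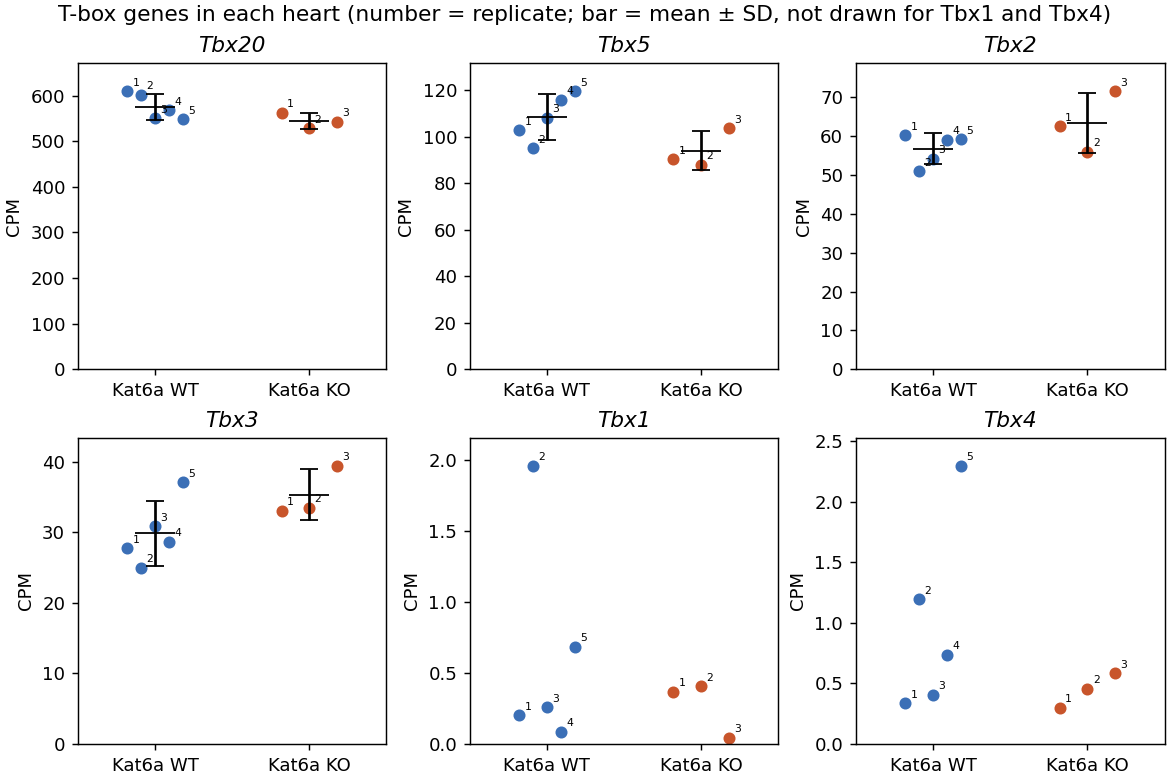
Scaled read counts (CPM, vertical axes from 0) of 6 T-box genes in 5 Kat6a WT and 3 Kat6a KO hearts, 1 point per heart with its replicate number, and mean ± SD for the 4 abundant genes. Values of the groups overlap in every panel; Tbx1 is highest in Kat6a WT replicate 2 and Tbx4 in Kat6a WT replicate 5.

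The 4 abundant members differed more from each other than any of them did between the genotypes. Levels are compared here as CPM per kilobase of the gene length in the deposited table. Tbx20 had the highest level, 83.6 ± 4.14 (SD, n = 5) CPM per kilobase in Kat6a WT and 79.0 ± 2.45 (n = 3) in Kat6a KO. Tbx5 followed at 27.5 ± 2.51 and 23.8 ± 2.15 CPM per kilobase. Tbx2 stood at 15.9 ± 1.12 and 17.8 ± 2.20 CPM per kilobase, and Tbx3 at 5.88 ± 0.901 and 6.95 ± 0.707. This order, Tbx20 over Tbx5 over Tbx2 over Tbx3, held in 8 of 8 hearts, and the values of neighbours in the order did not overlap over the 8 hearts. In Kat6a WT the level of Tbx20 was 3.04 times that of Tbx5, that of Tbx5 1.72 times that of Tbx2, and that of Tbx2 2.71 times that of Tbx3. A wide gap followed, with Tbx3 at 16.3 times the level of Tbx1. Tbx1 (0.360 ± 0.435 CPM per kilobase in Kat6a WT) and Tbx4 (0.306 ± 0.247) did not differ beyond their spread, and Tbx1 was the higher of them in 5 of 8 hearts. Among 15086 genes tested, ranked by mean level per kilobase in Kat6a WT, Tbx20 stood at rank 795, Tbx5 at 3124, Tbx2 at 5161 and Tbx3 at 8875. By level, 4 of the 6 were thus clearly expressed in the heart, while Tbx1 and Tbx4 had 95 and 154 counts over all 8 hearts.

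**Figure D2:**
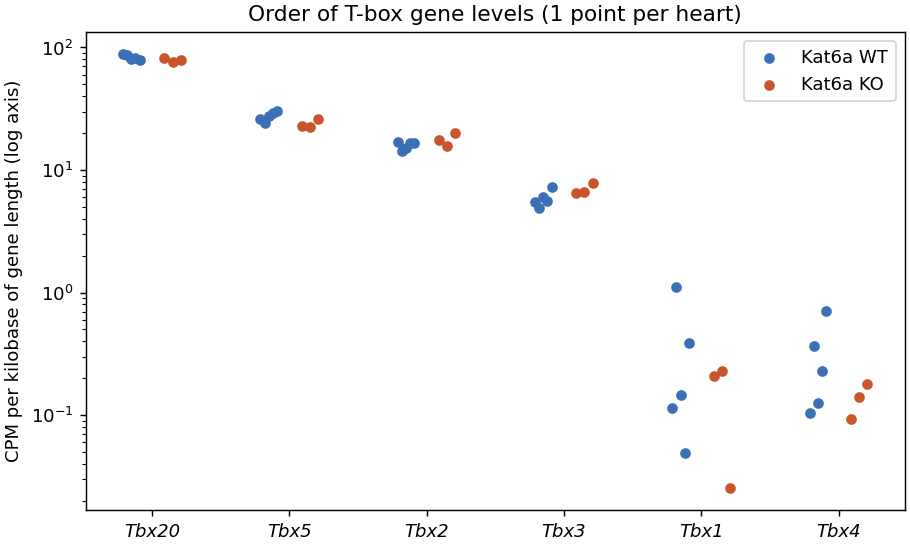
Level of each T-box gene as CPM per kilobase of gene length (log axis), 1 point per heart, Kat6a WT in blue and Kat6a KO in orange. Tbx20, Tbx5, Tbx2 and Tbx3 form separate steps in that order, and Tbx1 and Tbx4 lie below them and overlap each other.

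Promoter sequences from RefSeq (GRCm38.p6, which corresponds to mm10) matched 3 of the 6 members, Tbx1, Tbx4 and Tbx20. The 250 bases before a start of each are shown. Tbx2, Tbx3 and Tbx5 had no entry there, so the windows were not picked by level, although these genes lie at the top and the bottom of the order. Capitals mark the CG dinucleotide, read 5′ to 3′ on the gene's strand. None of these windows overlaps an annotated GENCODE exon. Tbx1 has another annotated start, not shown, and the Tbx4 window lies inside the span of the gene.

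Tbx20 (chr9:24774304-24774553, minus strand): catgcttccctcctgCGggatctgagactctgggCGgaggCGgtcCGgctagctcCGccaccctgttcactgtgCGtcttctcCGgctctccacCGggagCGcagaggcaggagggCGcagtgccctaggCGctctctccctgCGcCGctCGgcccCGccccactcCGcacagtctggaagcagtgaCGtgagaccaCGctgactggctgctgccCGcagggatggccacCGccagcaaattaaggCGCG
Tbx1 (chr16:18590672-18590921, minus strand): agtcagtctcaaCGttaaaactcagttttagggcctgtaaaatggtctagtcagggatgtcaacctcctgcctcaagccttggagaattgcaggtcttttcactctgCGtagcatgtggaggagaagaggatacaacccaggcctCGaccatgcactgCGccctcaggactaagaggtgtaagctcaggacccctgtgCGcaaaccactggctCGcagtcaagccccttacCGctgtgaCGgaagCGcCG
Tbx4 (chr11:85896515-85896764, plus strand): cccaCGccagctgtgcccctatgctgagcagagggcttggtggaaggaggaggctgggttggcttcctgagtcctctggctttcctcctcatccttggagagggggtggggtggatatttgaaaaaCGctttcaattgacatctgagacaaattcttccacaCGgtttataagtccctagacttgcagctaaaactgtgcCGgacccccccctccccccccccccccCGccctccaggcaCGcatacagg

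The Tbx20 window held 22 CG dinucleotides, a number that 14.8% of 32851 RefSeq windows of the same length reach, where the median is 6. The Tbx1 window held 10 (reached by 37.8%), the window at the other Tbx1 start 17 (reached by 23.5%), and the Tbx4 window 6 (reached by 50.4%). The number was highest before Tbx20, but the windows of Tbx1, a scarce gene, reached from 10 to 17. A T-box half-site (GGTGTGA on either strand) was found in none of the 3 windows and in 3.33% of all windows. The letters AGATAA, bound by GATA factors, were also in none, beside 9.99% of all windows, and those of an Nkx2-5 site (AAGTG) in none, beside 40.7%. No motif contains another, and their absence says only that they are not in these windows.

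Tbx5, an activator of chamber genes that works with Nkx2-5 and Gata4, lies on chromosome 5 from 119796514 to 119885220 (mm10; Entrez gene 21388). In replicate order, the 5 wild-type hearts stood at 103, 94.9, 108, 116 and 120 CPM and the 3 mutants at 90.2, 87.9 and 104 CPM. Kat6a KO replicates 1 and 2 lay below every Kat6a WT heart, while Kat6a KO replicate 3 lay above Kat6a WT replicates 1 and 2. Means were 108 ± 9.91 (SD, n = 5) and 93.9 ± 8.45 CPM (n = 3), and the log2 fold change of Kat6a KO over Kat6a WT was -0.21 ± 0.07 (SE; unadjusted 95% interval -0.36 to -0.048; edgeR quasi-likelihood test, adjusted p = 0.195). Of the 8 hearts left out in turn, 1 moved this result past the threshold. Without Kat6a WT replicate 2, the lowest wild-type heart, the log2 fold change was -0.25 and passed (edgeR, adjusted p = 0.0330). Without Kat6a WT replicates 4 and 5, the highest for Tbx5 and the pair with Xist RNA, it was -0.12 (edgeR, adjusted p = 0.505).

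Tbx3, a repressor of chamber genes in the conduction system, is the neighbour of Tbx5 on chromosome 5 (119670534 to 119684724; Entrez gene 21386), 112 kb away. Wild-type hearts 1 to 5 stood at 27.7, 25.0, 30.8, 28.6 and 37.1 CPM, and mutants 1 to 3 at 33.0, 33.5 and 39.5 CPM. All 3 Kat6a KO values lay above 4 of the 5 Kat6a WT hearts, and Kat6a WT replicate 5 alone lay among them. Means were 29.9 ± 4.58 (SD, n = 5) and 35.3 ± 3.59 CPM (n = 3), with a log2 fold change of 0.24 ± 0.11 (SE; unadjusted 95% interval 0.0094 to 0.47; edgeR, adjusted p = 0.330). Without Kat6a WT replicate 5 it was 0.33 (edgeR, adjusted p = 0.0548), and without both hearts that had Xist RNA 0.34 (adjusted p = 0.0805). Without Kat6a KO replicate 3 it was 0.15 (edgeR, adjusted p = 0.675).

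Tbx2, the repressor that marks the atrioventricular canal and outflow tract, lies on chromosome 11 (85832615 to 85841948; Entrez gene 21385). Wild-type hearts 1 to 5 stood at 60.3, 51.0, 54.2, 59.0 and 59.2 CPM, and mutants 1 to 3 at 62.5, 56.0 and 71.6 CPM. Kat6a KO replicates 1 and 3 were above all Kat6a WT hearts and replicate 2 was among them. Means were 56.7 ± 3.98 (SD, n = 5) and 63.4 ± 7.83 CPM (n = 3), with a log2 fold change of 0.16 ± 0.07 (SE; unadjusted 95% interval 0.0048 to 0.31; edgeR, adjusted p = 0.333). That difference rested largely on Kat6a KO replicate 3, without which the log2 fold change was 0.059 (edgeR, adjusted p = 0.821).

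Tbx20, a factor of chamber muscle and endocardium that holds Tbx2 down in the chambers, lies on chromosome 9 (24720812 to 24774303; Entrez gene 57246). Wild-type hearts 1 to 5 stood at 610, 601, 551, 568 and 549 CPM, and mutants 1 to 3 at 562, 528 and 543 CPM. Kat6a KO replicates 2 and 3 lay just below the lowest Kat6a WT heart. Means were 576 ± 28.5 (SD, n = 5) and 545 ± 16.9 CPM (n = 3). The log2 fold change was -0.081 ± 0.048 (SE; unadjusted 95% interval -0.18 to 0.020; edgeR, adjusted p = 0.488), the smallest of the 5 members tested.

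The balance of Tbx5 and Tbx3 within a heart separated the groups, although neither gene did so alone. The ratio of Tbx5 to Tbx3 counts was 3.71, 3.80, 3.51, 4.04 and 3.22 over wild-type hearts 1 to 5 and 2.73, 2.63 and 2.62 over mutants 1 to 3. Every Kat6a KO heart was below every Kat6a WT heart, including Kat6a WT replicate 5, whose Tbx3 level was high. The same held for 4.81% of single genes, and no such share was computed for ratios of other genes. On the log2 scale the means were 1.87 ± 0.12 (SD, n = 5) and 1.41 ± 0.03 (n = 3), a difference of -0.45. The exact permutation test over hearts gave p = 0.0179 (two-sided), the smallest that 56 regroupings can give. After Benjamini-Hochberg adjustment over the 3 ratios computed, this exact permutation p was 0.0536, so the difference did not pass. With 3 ratios, a ratio that alone reaches the smallest p cannot pass, whatever the size of its difference. Leaving out single hearts moved the difference only between -0.50 and -0.42. Which of the genes carries the difference in the ratio cannot be read from it. The ratio of Tbx2 to Tbx3 was 1.59 to 2.17 in wild-type hearts and 1.67 to 1.89 in mutants (difference -0.095 on the log2 scale; exact permutation p = 0.446, adjusted p = 0.446). The ratio of Tbx5 to Tbx20 was 0.158 to 0.218 and 0.160 to 0.191 (difference -0.12; exact permutation p = 0.321, adjusted p = 0.446). For both of these the Kat6a KO values lay inside the range of Kat6a WT.

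**Figure D3:**
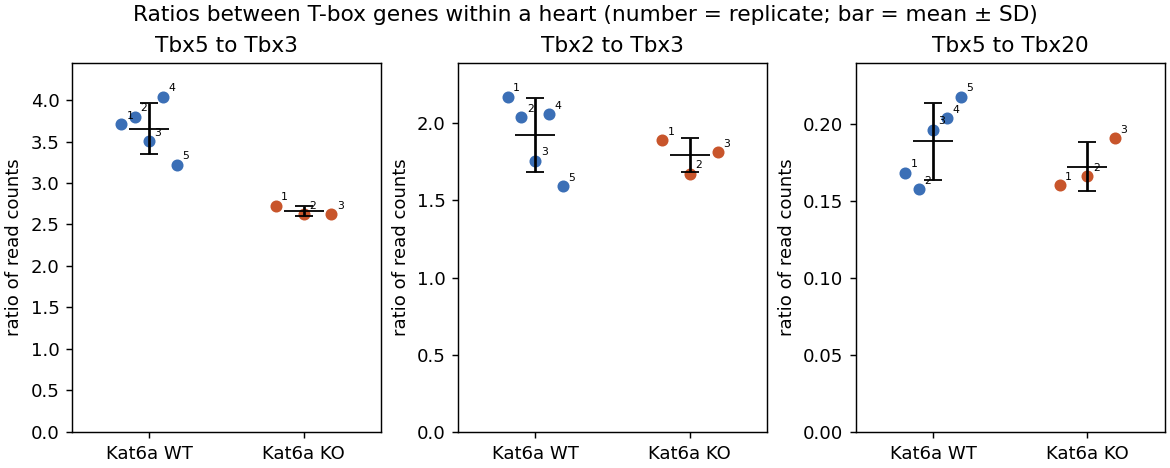
Ratio of read counts between 2 T-box genes within each heart (vertical axes from 0), 1 point per heart with its replicate number and mean ± SD. The ratio of Tbx5 to Tbx3 is 3.22 or more in all 5 Kat6a WT hearts and 2.73 or less in all 3 Kat6a KO hearts; the other ratios overlap.

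Within each genotype, Tbx3 and Tbx5 were high in the same hearts. Kat6a WT replicate 5 had the highest Tbx3 and Tbx5 of its group, and Kat6a KO replicate 3 had the highest of both in the other. Over the deviations of 8 hearts from their group means, Pearson's r of log2 CPM was 0.86 between Tbx3 and Tbx5, 0.76 between Tbx2 and Tbx5 and -0.69 between Tbx3 and Tbx20, as a description of hearts that share their library scaling. Shox2, a homeobox gene of the sinus node and inflow tract, stood at 0.846, 5.93, 5.74, 19.4 and 26.8 CPM over wild-type hearts 1 to 5 and at 9.23, 8.38 and 21.1 CPM over mutants 1 to 3. The hearts with the highest Tbx3 were thus also high in Shox2. Wnt2, a ligand gene of the venous pole, spanned 19.7 to 49.6 CPM in wild-type hearts and 24.3 to 38.0 CPM in mutants, with the highest value of each group in the same hearts as Shox2. The r within groups with Wnt2 was 0.89 for Tbx3, 0.93 for Tbx5 and -0.63 for Tbx20, and with Shox2 it was 0.60, 0.71 and -0.65. With Hcn4, the pacemaker channel gene, it was 0.68, 0.68 and -0.54, and with Isl1, the last of the 4 genes read in this way, only 0.26, 0.17 and 0.052. Tbx2 had a weaker link to most of them, with r within groups of 0.61 for Wnt2, 0.23 for Shox2, 0.32 for Hcn4 and 0.13 for Isl1. An edgeR fit with the Shox2 level of each heart as a covariate, chosen because Shox2 moved with Tbx3 and Tbx5 in these same hearts, gave Tbx5 a log2 fold change of -0.25 ± 0.06 (SE; adjusted p = 0.0226) and Tbx3 one of 0.19 ± 0.09 (adjusted p = 0.353). Since the covariate was chosen by its link to these genes, the p-values of that fit do not count as tests of them. Nor is that fit a test of venous tissue: how much of it each heart held was not measured, and its part in the differences was not tested.

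**Figure D4:**
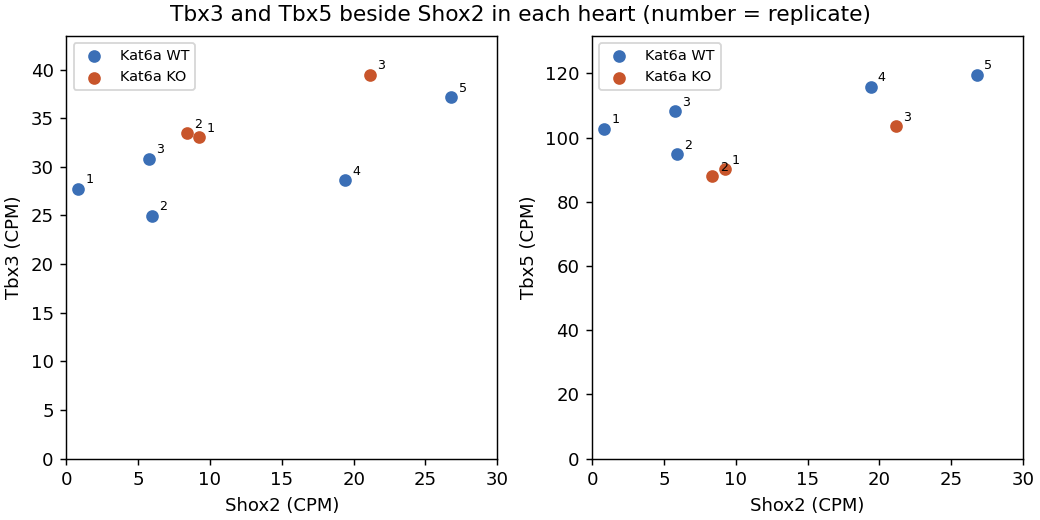
Tbx3 (left) and Tbx5 (right) against Shox2 in CPM, 1 point per heart with its replicate number. Kat6a WT replicate 5 and Kat6a KO replicate 3 are highest in their groups on every axis; Kat6a KO replicates 1 and 2 lie below Kat6a WT replicates 1 to 3 for Tbx5 and above them for Tbx3.

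Tbx1 (chromosome 16, 18580979 to 18590671; Entrez gene 21380) was close to the floor of detection in whole hearts. Wild-type hearts 1 to 5 had 6, 41, 9, 2 and 17 counts, and mutants 1 to 3 had 11, 8 and 1. Of the 75 counts in Kat6a WT, 41 (54.7%) came from replicate 2, and the values of the groups overlapped. In CPM the means were 0.640 ± 0.773 (SD, n = 5) and 0.273 ± 0.199 (n = 3), a difference of -0.37 CPM (exact permutation test, two-sided, p = 0.643; adjusted over the 2 low genes, p = 0.643). Without Kat6a WT replicate 2 the difference was -0.036 CPM (exact permutation, adjusted p = 0.886). The genes of the pharyngeal list had a summed level of 399 CPM in Kat6a WT replicate 2, against 335 to 341 CPM in the other 4 Kat6a WT hearts, and the part of carried-along pharyngeal tissue was not tested.

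Tbx4 (chromosome 11, 85886367 to 85916097; Entrez gene 21387), the neighbour of Tbx2 at a distance of 44.4 kb, was as scarce. Wild-type hearts 1 to 5 had 10, 25, 14, 17 and 57 counts, and mutants 1 to 3 had 9, 9 and 13. Kat6a WT replicate 5 gave 57 of 123 counts (46.3%) of its group. Means were 0.996 ± 0.805 (SD, n = 5) and 0.448 ± 0.142 CPM (n = 3), a difference of -0.55 CPM (exact permutation test, two-sided, p = 0.304; adjusted p = 0.607). Tbx4 passed the count filter, and its log2 fold change in the edgeR fit was -1.14 ± 0.61 (SE; adjusted p = 0.425). That fell to -0.55 without Kat6a WT replicate 5 (edgeR, adjusted p = 0.735) and to -0.48 without both hearts that had Xist RNA (adjusted p = 0.809). Foxf1, a gene of foregut and lung mesenchyme, had 4.04 CPM in Kat6a WT replicate 5 and 0.169 to 1.12 CPM in the other 7 hearts. The foregut and lung bud list summed to 68.5 CPM in that heart and to 33.1 to 52.0 CPM in the others. Most of the sum in Kat6a WT replicate 5 was Wnt2, described above as a gene of the venous pole. Foxf1 was named after its values were seen, and not every foregut gene peaked in that heart. Epcam, at low counts, was at 0.444 CPM there, and its highest value was 0.826 CPM (Kat6a WT replicate 4). Wnt2b was at 13.6 CPM there, and its highest value was 14.5 CPM (Kat6a WT replicate 2). The part of foregut tissue in the Tbx4 value was not tested.

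Genes next to the members were read for the same comparison. Gm5563, a long noncoding RNA whose RefSeq span (chromosome 5, 119805327 to 119831986) lies inside that of Tbx5, was the only overlapping or adjacent gene that passed. Wild-type hearts 1 to 5 stood at 2.84, 2.73, 3.68, 4.30 and 3.55 CPM, and mutants 1 to 3 at 5.08, 5.03 and 7.10 CPM. All 3 Kat6a KO hearts were higher, as for 4.77% of all genes, and the gene rose by 0.74 ± 0.19 on the log2 scale (SE; edgeR, adjusted p = 0.0327), opposite in sign to Tbx5. That call was lost in 10 alternative fits, 7 of which left out a single heart: it was lost without any one of Kat6a WT replicates 1, 2, 3 and 5 or of the 3 Kat6a KO hearts (adjusted p up to 0.232). In the GENCODE annotation Tbx5 starts at 119832668, so that Gm5563 ends 681 bases before it. The strand setting of the counting is not given, so the counts of Gm5563 and Tbx5 are uncertain where reads could be shared. Rbm19, on the far side of Tbx5, had a log2 fold change of 0.025 ± 0.059 (edgeR, adjusted p = 0.907). Tested genes beside Tbx1 (Gnb1l, Gp1bb), Tbx2 (2610027K06Rik), Tbx3 (AW549542), Tbx4 (Brip1) and Tbx20 (Dpy19l1, Herpud2) had log2 fold changes of -0.40 (Gp1bb) to 1.42 (AW549542, at 0.295 ± 0.144 and 0.808 ± 0.538 CPM), and 0 of these 7 passed (edgeR, adjusted p 0.159 or more; 0 by DESeq2; only AW549542 had an unadjusted edgeR p under 0.05). Tbx3os1, which shares 975 bases with Tbx3, and Gm35369, which shares 1873 bases with Tbx1, were not analysed here, and reads of Tbx3 and Tbx1 in those stretches are uncertain.

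The rest of the T-box family was mostly silent. Of 11 other family genes, 3 passed the count filter and 0 of these passed the test (edgeR; 1 at an unadjusted p under 0.05; 0 by DESeq2). Tbx18, which marks the epicardium and the sinus horns, stood at 88.3, 96.9, 77.0, 77.0 and 90.1 CPM over wild-type hearts 1 to 5 and at 74.8, 64.8 and 76.3 CPM over mutants 1 to 3. All 3 Kat6a KO values lay below all Kat6a WT values, as they did for 4.81% of all genes, but the log2 fold change of -0.25 ± 0.08 did not pass (SE; edgeR, adjusted p = 0.127). The 11 epicardial markers, Tbx18 among them, summed to 509 to 586 CPM in wild-type hearts and 388 to 446 CPM in mutants, and the part of epicardial cell number in the Tbx18 value was not tested. Mga, which carries a T-box beside a domain for pairing with Max, had 116 ± 7.58 and 123 ± 2.53 CPM (log2 fold change 0.076 ± 0.053; edgeR, adjusted p = 0.572). Tbx15 was under the count filter with 11 counts in 5 Kat6a WT hearts and 23 in 3 Kat6a KO hearts, and Tbx22 had 0 counts in all 8.

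Among factors that bind or act beside the cardiac T-box proteins, 5 of 12 fell and 0 rose, beside 1.23% and 1.44% of all genes. Hand1 of the left ventricle fell by 1.04 ± 0.09 on the log2 scale (SE), Srf by 0.21 ± 0.04, Gata4 by 0.19 ± 0.04, Gata5 by 0.23 ± 0.06 and Hand2 by 0.22 ± 0.06 (edgeR, adjusted p = 0.0446 for Hand2, which the rule for named genes did not select). The median of the 12 was -0.21, against -0.00015 over all genes tested. Tbx5 itself, at -0.21 ± 0.07, had a larger SE than Gata4, Gata5 or Srf. Without both hearts that had Xist RNA 2 of 12 fell (1.88% of all genes then passed in either direction). Without Kat6a KO replicate 1 also 2 fell, and without Kat6a KO replicate 2 or Kat6a WT replicate 5 it was 3. Over all genes the number past the threshold went from 403 to 194, 273 and 343 in these single-heart fits, in that order. Gata4 no longer passed on leaving out Kat6a KO replicate 1 or 2, nor did Gata5 without either of these or Kat6a WT replicate 5 (edgeR, adjusted p up to 0.230 for single hearts). Hand1 and Srf passed in all 8 single-heart fits. Hand2 was not among the genes that fell without Kat6a KO replicate 1 or without Kat6a WT replicate 5.

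Chamber genes that Tbx5 activates or Tbx2 and Tbx3 repress lay on both sides of 0. Of 14, 1 rose and 1 fell, where 1.44% and 1.23% of all genes did. Another count, those at an unadjusted p under 0.05, was 8 of 14, where 14.2% of all genes had one, and the median log2 fold change was 0.087. Nppa, the natriuretic peptide gene that is the textbook target of Tbx5 and of both repressors, had 1439 ± 184 CPM in Kat6a WT (SD, n = 5) and 1415 ± 214 CPM in Kat6a KO (n = 3; log2 fold change -0.025 ± 0.13; edgeR, adjusted p = 0.963). Gja5 and Gja1, the connexin genes of fast conduction, had log2 fold changes of 0.057 ± 0.069 and 0.031 ± 0.089 (edgeR, adjusted p = 0.787 and 0.924). Ryr2, the calcium release channel, rose by 0.25 ± 0.06 and Irx4, a ventricular homeobox gene, fell by 0.25 ± 0.06 (edgeR, adjusted p = 0.0187 and 0.0413). The summed level of 12 cardiomyocyte markers was also higher in all 3 Kat6a KO hearts, by a narrow margin. The lowest Kat6a KO heart stood at 39702 CPM and the highest Kat6a WT heart at 39638 CPM. The part of this summed level in the Ryr2 value was not tested. Ryr2 lost its call when Kat6a WT replicate 3 was left out, or Kat6a KO replicate 1 or 2 (largest adjusted p 0.123), and Irx4 without any one of 6 hearts, Kat6a WT replicates 1, 2 and 3 and all Kat6a KO replicates (adjusted p up to 0.232).

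Of 14 genes of the atrioventricular canal and pacemaker, the regions of Tbx2 and Tbx3, 1 rose and 0 fell, beside 1.44% and 1.23% of all genes, with a median of -0.013. Msx2, a homeobox gene of the canal, rose by 0.41 ± 0.11, but its groups overlapped and the call was lost in 11 alternative fits (edgeR, adjusted p = 0.0472, and up to 0.313). Bmp2, the ligand that induces Tbx2 in the canal, had 49.6 ± 2.28 and 52.0 ± 2.84 CPM (log2 fold change 0.069 ± 0.061; edgeR, adjusted p = 0.676). Hcn4 spanned 88.1 to 142 CPM in wild-type hearts and 67.8 to 86.5 CPM in mutants. Its groups did not overlap, as for 9.58% of all genes in either direction, and its log2 fold change of -0.46 ± 0.19 did not pass (edgeR, adjusted p = 0.364).

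Of 18 genes of the pharyngeal Tbx1 pathway, 15 passed the count filter; 1 rose, 3 fell and 11 did not pass, where 1.44% of all genes rose and 1.23% fell. The median was -0.26, but the tested genes were split, with 8 log2 fold changes below 0 and 7 above. Among them Nkx2-6 fell by 3.63 ± 0.42 on the log2 scale and Foxc1 by 0.63 ± 0.11, while Fgf10, a growth factor of outflow progenitors, rose by 1.20 ± 0.17 (SE; edgeR, adjusted p up to 0.00304). Isl1, which marks these progenitors, had 6.69 ± 3.06 and 6.64 ± 1.62 CPM (log2 fold change 0.00094 ± 0.41; edgeR, adjusted p = 0.999).

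**Figure D5:**
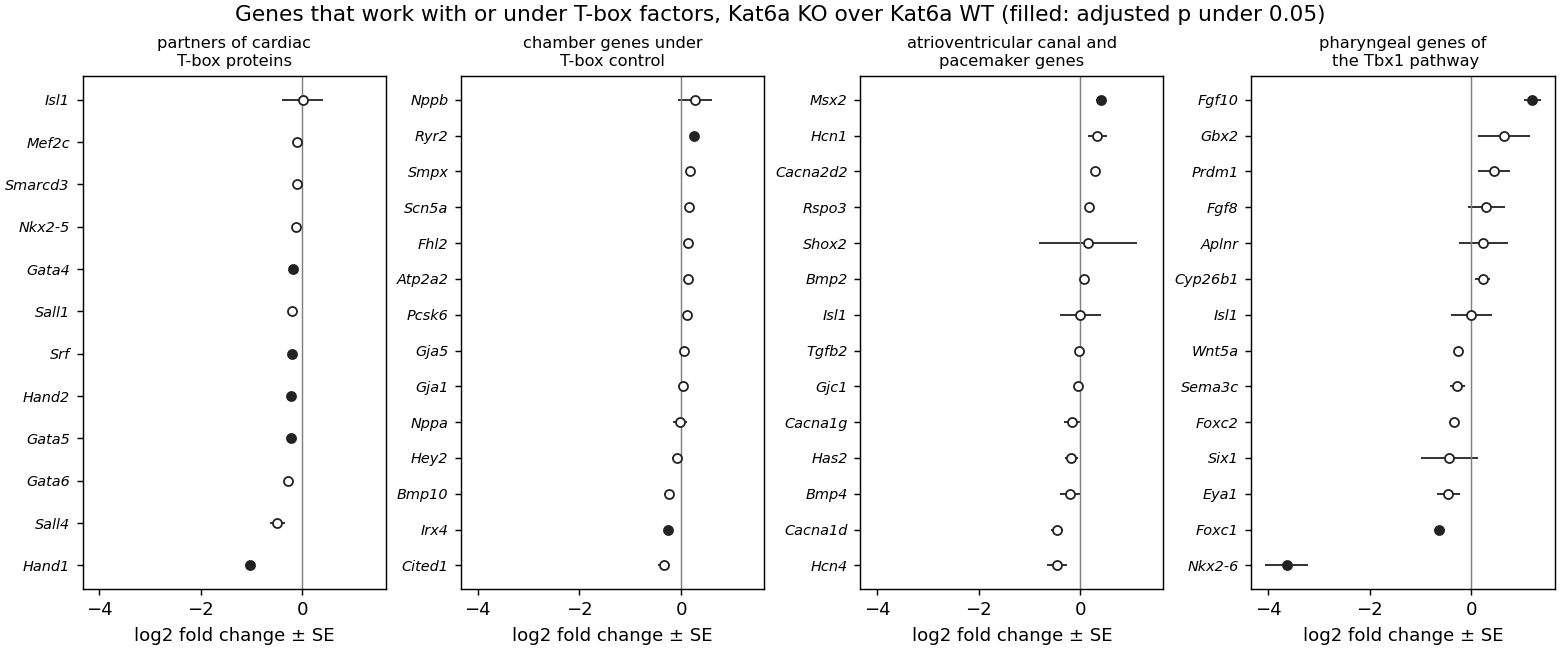
Log2 fold change of Kat6a KO over Kat6a WT with its standard error (horizontal axis) for the reported genes of 4 lists that passed the count filter, filled where the adjusted p was under 0.05. Most partner genes lie left of 0, while chamber, canal and pacemaker genes lie on both sides.

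By a fixed rule the 3 genes most like each tested member over the 8 hearts were taken, by Pearson's r of log2 CPM among 12034 named genes (12035 for Tbx4) whose average log2 CPM reached 1. Hearts are few beside that many genes, so high values of r arise for any gene and are given as a description. For Tbx5 they were Ccdc61 (r = 0.99), Tcea3 (0.98) and Tulp1 (0.98), and for Tbx20 they included Ppm1h (0.95) and Tmem144 (0.95). For Tbx3 they were Ephb2 (0.96), Suds3 (0.95) and Smim10l2a (0.94), and for Tbx2 Ssc4d (0.97), Fam13a (0.94) and Hmga2-ps1 (0.94). For Tbx4, at its low counts, they were Arhgef25 (0.97), Osbpl6 (0.96) and Stag3 (0.95). No member was among the genes named for another.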

How the data were processed

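Total RNA from 8 hearts was isolated with a micro column kit and made into stranded libraries, per the labels' protocols. The submitters' processing notes list bcl2fastq, featureCounts and the mm10 build; for the aligner, versions, annotation and strand setting, nothing is given in the sources used here. Whole-number read counts for each Entrez gene, not normalized, were deposited by the authors together with gene lengths. Symbols came from the RefSeq table of GRCm38.p6 (25275 of 27179 identifiers matched; the other 1904 held 1.05% of counts).

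Groups came from the labels. edgeR 4.0.16 in R 4.3.3 (limma 3.58.1, DESeq2 1.42.0, Python 3.11.15) filtered genes with filterByExpr, scaled by trimmed mean of M values and ran the robust quasi-likelihood test, Kat6a KO over Kat6a WT, with a threshold of 0.05 on Benjamini-Hochberg adjusted p. SE is the absolute log2 fold change over the root of F. The biological coefficient of variation was 9.10%. Tbx4 passed the filter although the design assumed that it would not, so both its tests are given. Log2 CPM for likeness used a pseudocount of 0.5. On simulated counts for 14960 genes, the test made calls for 30% of genes set to change 1.25-fold, 92% of those set to 1.5-fold and 100% of those set to 2-fold (50 genes each), and 8 of 169 calls were false. The simulation gave every gene the same biological variation and changed only genes above a level that Tbx1 and Tbx4 do not reach. These shares therefore do not give the chance of a call for any single member.

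Members and lists were chosen with earlier results of these data known. Named genes were the members; up to 4 called genes of each of 15 lists, or 2 of smallest p; genes overlapping or beside a member; and the 3 most alike; 4 genes so selected are not reported here. Tbx18, Mga, Nppa, Gja5, Gja1, Bmp2, Hcn4, Shox2, Wnt2, Foxf1, Isl1, Tbx15, Tbx22 and Hand2 were named after their values were seen. CPM behind likeness and ratios share each library's scaling. Alternatives were another tool, scaling or filter, a replicate block, Xist or Shox2 as a covariate, and leaving out hearts.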

Additional observations from a re-analysis of the deposited data

Results flagged for a closer look

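Of 65 sets of 5 Kat6a WT values checked for a single distant heart, 2 had one, and chance alone gives about 1 in 20. Pecam1, an endothelial adhesion gene, stood at 149 CPM in Kat6a WT replicate 2, above the others. Smim10l2a, one of the genes most like Tbx3, stood at 8.24 CPM in Kat6a WT replicate 5, the heart with the highest Tbx3 of its group. By that check none of the 6 T-box genes and none of the 3 ratios had such a heart. Still, Kat6a WT replicate 2 gave 54.7% of the Tbx1 counts of its group, and Kat6a WT replicate 5 gave 46.3% of those of Tbx4.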

How the results depend on the processing

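Across the alternatives, each T-box member kept the sign of its difference. Tbx5 alone crossed the threshold: at -0.25 with Shox2 as a covariate (chosen after seeing the data; edgeR, adjusted p = 0.0226) and on leaving out Kat6a WT replicate 2 (range over single hearts -0.29 to -0.17). Over all alternatives its adjusted p was 0.0226 to 0.505. The lowest came from the Shox2 fit, which is no test of Tbx5 because of how its covariate was chosen. The number of genes past the threshold was 403, 181 with a replicate block and 194 to 496 on leaving out single hearts (194 without Kat6a KO replicate 1, 263 without Kat6a KO replicate 3). The same-numbered hearts shared only a number (correlation of deviations 0.066, -0.16 and -0.057). With the replicate block the log2 fold change was 0.34 for Tbx3 (edgeR, adjusted p = 0.0702; 0.0548 to 0.675 over all alternatives) and -0.12 for Tbx5, the log2 ratio of Tbx5 to Tbx3 differed by -0.46, and 1 of 12 partner genes fell in place of 5 (edgeR, adjusted p = 0.0766 for Srf, 0.242 for Gata4 and 0.213 for Gata5). Signs turned for 4 reported genes that did not pass. Slc4a1 stood at 0.42 with the replicate block, 0.30 with Xist as a covariate, 0.30 without hearts that had Xist RNA, and 0.10 without Kat6a WT replicate 4, and 2610027K06Rik in the same order at -0.013, -0.084, -0.084 and -0.047. On leaving out single hearts the ranges were -0.62 to 0.10 for Slc4a1, -0.047 to 0.48 for 2610027K06Rik, -0.093 to 0.014 for Dpy19l1 (turned without Kat6a KO replicate 2) and -0.015 to 0.26 for Hmga2-ps1 (turned without Kat6a KO replicate 3). The causes were not tested. A ratio that alone reached the smallest exact p could not pass the adjusted threshold, with all hearts or with a heart left out.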

Other observations

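Markers of other cell types give the setting of these hearts. Of 11 epicardial markers 6 fell and 1 rose, with Lrrn4, Bnc1 and Wt1 lower by 0.51, 0.72 and 0.49 on the log2 scale and Krt19 higher by 0.42. Of 9 endocardial and endothelial markers 2 rose (Pecam1 and Tie1, each by 0.20, lost without any one of 4 and 7 hearts) and 1 fell (Npr3, by 0.49). Of 9 cushion markers 2 fell, Msx1 by 1.01 and Twist1 by 0.48, and 0 rose. Of 12 cardiomyocyte markers 1 rose, Tnni3 by 0.20, lost on leaving out any one of 5 hearts. Log2 fold changes were above 0 for 11 of these 12, with a median of 0.12. An unadjusted edgeR p under 0.05 was found for 6 of the 12, beside 14.2% of all genes. Of 9 macrophage markers 5 rose, among them Adgre1 by 2.57, Laptm5 by 0.87, C1qb by 1.81 and C1qa by 2.48. Of 9 limb bud and body wall markers 4 passed the count filter and 1 fell, Lhx9 by 1.24, while Hoxa11, Hoxd9 and Hoxd10 had no counts in any heart. These calls are from the edgeR fit over all 8 hearts, where 2.67% of all genes passed.

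Of 12 foregut and lung bud genes 5 passed the count filter, of 8 neural crest genes 4, and all 8 erythroid and all 11 immediate early and heat shock genes did. Of those tested, 0 passed in that fit, 0 had an unadjusted edgeR p under 0.05, and DESeq2 called 0. The foregut genes Wnt2b and Epcam had log2 fold changes of -0.25 and -0.49, the neural crest gene Dlx2 -1.49, the red cell gene Slc4a1 -0.33, and the stress genes Jun and Atf3 0.45 and 0.64. Single hearts carried several of these values. Without Kat6a KO replicate 1, Jun stood at 0.15, Atf3 at 0.12 and Epcam at -0.12, and the stress genes summed to 494 CPM in that heart and to 280 to 333 CPM in the other 7. Without Kat6a KO replicate 3 Epcam stood at -1.13 and Dlx2 at -0.93, and without Kat6a KO replicate 2 Dlx2 stood at -3.54 (edgeR, adjusted p = 0.0493). Foxd3 and Tfap2b of the neural crest had no counts. Summed erythroid levels ranged from 3656 to 15147 CPM in Kat6a WT and 5107 to 8725 CPM in Kat6a KO.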
